A study of Mus musculus with 4 samples.

Results

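The REV-ERB and ROR nuclear receptors and the D-box transcription factors of the circadian clock were compared between Bmal1 knockout and heterozygous mouse skin. The 8 genes were taken by name: Nr1d1 and Nr1d2, which encode REV-ERB alpha and beta; Rora and Rorb, which encode ROR alpha and beta; Dbp, Tef and Hlf, the PAR bZIP activators; and Nfil3, the bZIP repressor also called E4BP4. Each had 1 probe set, so they make up 8 of the 19938 genes that had a probe set paired with them alone (21789 probe sets). All 8 lay among the 16341 probe sets that were tested. Whole back skin came from C57Bl6 mice at postnatal day 22, during telogen, when hair follicles rest. Collection was at ZT22 (hours after lights on), near the end of the night. Heterozygous mice kept 1 wild-type allele of Bmal1, listed as Arntl on the array, beside 1 mutant allele, and knockout mice were germline deleted for both copies. Each of the 2 groups had 2 mice, described as littermates, with 1 Affymetrix array per mouse. Every mouse therefore carried at least 1 mutant allele, and no wild-type mouse was analysed here.

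BMAL1 pairs with CLOCK or NPAS2 and activates genes through E-box elements. Among the direct targets are the genes for REV-ERB and for the PAR bZIP factors. REV-ERB proteins bind ROR elements and recruit the NCoR and HDAC3 corepressor, while ROR proteins bind the same elements and activate, and Bmal1 itself is a target of that competition. DBP, TEF and HLF activate through D-box elements, to which NFIL3 binds as a repressor, and Nfil3 is in turn a target of REV-ERB. The comparison asked how the signals of these opposed factors differ when Bmal1 is lost, at 1 time of day.

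The promoter windows below are shown because they hold letters of these elements next to annotated starts. Shown are those of Nr1d1, Nr1d2, Tef and Nfil3, the factors with the smallest p. The second window of Rorb is shown as the 1 window that matched the D-box letters searched. All windows come from RefSeq on the GRCm38.p6 build, which held a window for all 8 genes, 10 windows in all. Each runs from 250 bases before to 50 after a start. Letters in capitals mark a match, on either strand, to the E-box CACGTG, the related E-prime box CACGTT, the D-box TTANGTAA, the ROR element core TAGGTCA or the nuclear receptor core AGGTCA, which the ROR element core contains.
Nr1d1, chr11:98775328-98775627, minus strand: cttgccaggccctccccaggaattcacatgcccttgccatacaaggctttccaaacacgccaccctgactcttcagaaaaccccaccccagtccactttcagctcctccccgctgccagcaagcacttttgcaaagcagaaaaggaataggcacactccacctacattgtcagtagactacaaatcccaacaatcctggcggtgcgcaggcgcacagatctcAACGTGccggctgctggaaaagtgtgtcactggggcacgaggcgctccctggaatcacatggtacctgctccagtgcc
Nr1d2, chr14:18239057-18239356, minus strand: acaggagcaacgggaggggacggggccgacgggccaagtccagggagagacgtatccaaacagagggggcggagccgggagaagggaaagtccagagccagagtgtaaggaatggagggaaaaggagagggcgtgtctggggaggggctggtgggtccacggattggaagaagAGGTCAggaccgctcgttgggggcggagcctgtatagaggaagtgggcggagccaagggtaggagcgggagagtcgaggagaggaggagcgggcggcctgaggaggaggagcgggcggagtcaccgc
Tef, first window, chr15:81802423-81802722, plus strand: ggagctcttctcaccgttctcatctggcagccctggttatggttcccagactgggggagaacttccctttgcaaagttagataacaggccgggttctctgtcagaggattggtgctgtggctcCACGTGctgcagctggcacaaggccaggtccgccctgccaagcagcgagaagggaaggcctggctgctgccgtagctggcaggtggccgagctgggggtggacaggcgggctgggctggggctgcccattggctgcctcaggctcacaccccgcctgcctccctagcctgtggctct
Nfil3, chr13:52980990-52981289, minus strand: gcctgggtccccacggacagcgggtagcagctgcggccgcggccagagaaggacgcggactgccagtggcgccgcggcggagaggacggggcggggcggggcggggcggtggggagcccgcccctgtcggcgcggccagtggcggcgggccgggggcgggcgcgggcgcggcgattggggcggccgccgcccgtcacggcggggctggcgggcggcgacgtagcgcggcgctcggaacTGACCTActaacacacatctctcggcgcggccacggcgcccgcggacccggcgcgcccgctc
Rorb, second window, chr19:19001068-19001367, minus strand: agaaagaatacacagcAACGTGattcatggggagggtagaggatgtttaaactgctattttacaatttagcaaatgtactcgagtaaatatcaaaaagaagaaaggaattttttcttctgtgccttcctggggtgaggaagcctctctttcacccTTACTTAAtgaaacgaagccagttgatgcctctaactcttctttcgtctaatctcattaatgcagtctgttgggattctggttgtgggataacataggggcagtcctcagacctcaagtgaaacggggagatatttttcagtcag

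Nr1d1 had 1 E-prime box, whose first base lay 28 bases before the start, a motif found in 4.68% of all 32851 windows. Tef had 1 E-box in each of its windows, 127 and 138 bases before the start, against 7.15% of all windows. The Nfil3 window held a ROR element core on its minus strand 12 bases before the start, a motif of 2.61% of windows, and the second Arntl window held one 31 bases after its start. The second Rorb window had a match to the D-box letters TTANGTAA at 95 bases before the start, against 2.32% of windows. The match was on the minus strand, printed as TTACTTAA, and its open position N leaves it a loose match. That window also had an E-prime box at 234 bases. Nr1d2 had only the receptor core AGGTCA, 77 bases before its start, and 16.3% of windows hold those letters. The windows of Rora, Dbp and Hlf and the first window of Rorb held none of these letters. A match is a description of the letters, and binding was not measured.

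The deleted gene was read first. Arntl read 8.90 and 9.08 in heterozygous skin and 8.29 and 8.16 in knockout skin, on the log2 scale used throughout. It fell by 0.76 (SE 0.12, n = 2 per group, limma adjusted p = 0.015), to 58.8% of the heterozygous level. Which exons its probes cover was not given, so the remaining signal is no measure of intact mRNA. Markers of keratinocytes were high in all arrays, as a mean of 4 genes between 12.1 and 12.7, which fits the labelled tissue.

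Of the 8 factors, 1 passed the limma test over all tested probe sets at an adjusted p under 0.05, Nr1d1, against 1.98% of all tested probe sets (323). At an unadjusted p under 0.05 there were 4 of the 8, against 17.9% of tested probe sets: Nr1d1 and Nr1d2 were lower, where 6.38% of probe sets were, and Tef and Nfil3 were higher, where 11.6% were. The groups did not overlap for 7 of the 8, 4 lower and 3 higher. Rorb, among the 4 lower, was tested only because of its heterozygous values. Such non-overlap held for 49.8% of all tested probe sets. The differences of single factors are therefore given with their intervals and with each array's value. The 2 arrays per group allow no exact permutation p under 0.333 for a single gene, so the tests rest on the variance that limma draws from all probe sets. Back skin was measured whole, and fewer cells of a type cannot be told apart from less RNA per cell.

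**Figure D1:**
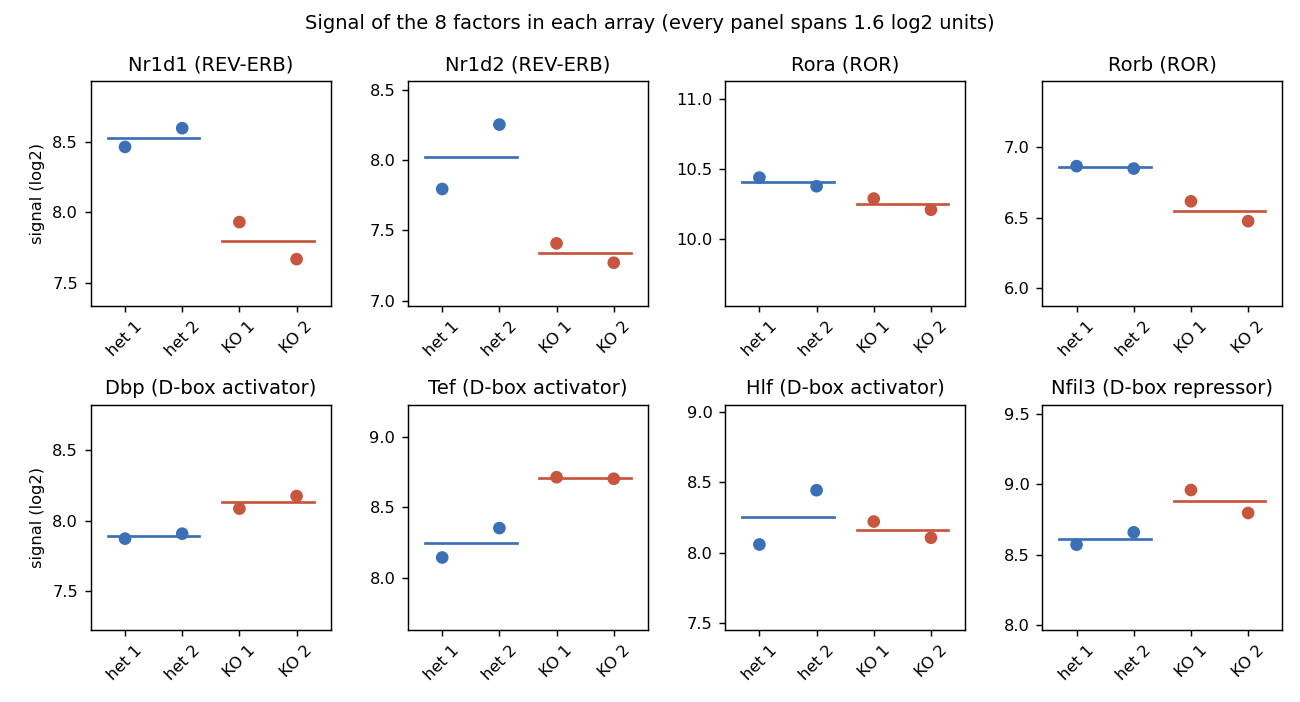
Signal (log2) of the 8 factors in each array, 1 panel per gene, with heterozygous arrays in blue, knockout arrays in red and a line at each group's mean. Both knockout points of Nr1d1 and Nr1d2 lie well below the heterozygous points, those of Tef lie above, and those of Hlf lie within the heterozygous range.

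The REV-ERB genes had the lowest knockout values relative to the heterozygotes. Nr1d1, whose product REV-ERB alpha represses through ROR elements, read 8.46 and 8.60 in heterozygous skin and 7.93 and 7.67 in knockout skin. Both knockout arrays were below both heterozygous arrays, with a smallest gap of 0.53 between groups against 0.13 within the heterozygous and 0.26 within the knockout pair. Nr1d1 fell by 0.73 (SE 0.13, 95% interval -1.02 to -0.45, n = 2 per group, limma adjusted p = 0.024), to 60.2% of the heterozygous level. Only 0.875% of tested probe sets had a smaller p. The call ended in several settings: adjusted p was 0.318 with all probe sets tested, 0.126 when probe sets paired with several genes were tested too, 0.055 without a filter on dim probe sets, 0.0504 without heterozygous array 2 and 0.085 without knockout array 2. The Thra gene, which encodes a thyroid hormone receptor and overlaps Nr1d1 in the genome annotation, read 9.96 and 9.87 in the heterozygous and 10.4 and 10.1 in the knockout arrays. Its difference of 0.37 (SE 0.13) pointed the other way and did not pass (limma adjusted p = 0.172).

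Nr1d2, whose product REV-ERB beta shares the targets of REV-ERB alpha, read 7.79 and 8.25 in heterozygous skin and 7.41 and 7.27 in knockout skin. Again the groups did not overlap, but the heterozygous arrays differed from each other by 0.46, more than the smallest gap of 0.39 between groups. The difference was -0.68 (SE 0.16, 95% interval -1.04 to -0.33, n = 2 per group), or 62.3% of the heterozygous level, and it did not pass (limma adjusted p = 0.063). It was -0.46 without heterozygous array 2 (limma adjusted p of 0.173), against -0.91 when heterozygous array 1 was left out, which passed (0.00912). The REV-ERB genes differed by nearly the same amount, and the gap between their differences was -0.05, with overlapping arrays.

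The ROR genes had smaller differences, and neither had an unadjusted p under 0.05. Rora, a ROR element activator that was among the brighter probe sets (91.3% of tested probe sets had a mean at or below its own), read 10.44 and 10.38 in the heterozygous and 10.29 and 10.21 in the knockout arrays. Its difference of -0.16 (SE 0.11, 95% interval -0.41 to 0.09) did not pass (limma adjusted p = 0.493). The groups were separated by 0.09, and in the values as deposited, 10.40 and 10.31 against 10.35 and 10.26, they overlapped. Its difference was -0.05 with the deposited values and -0.01 after median centring.

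Rorb, the ROR beta gene, known mainly from retina and brain, was close to the limit of what was tested, since only 0.875% of tested probe sets had a mean at or below its own. It read 6.87 and 6.85 in the heterozygous and 6.62 and 6.48 in the knockout arrays, with no overlap between groups. The difference was -0.31 (SE 0.15, 95% interval -0.66 to 0.03) and did not pass (limma adjusted p = 0.323). The filter on dim probe sets stood at 6.67, and both knockout arrays lay below it, so Rorb passed it only through the heterozygous arrays.

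REV-ERB was set against ROR by centring each probe set on its mean over the 4 arrays, which removes the level and keeps the pattern. The REV-ERB mean stood at 0.21 and 0.50 in the heterozygous and at -0.25 and -0.45 in the knockout arrays, a difference of -0.71. The ROR mean stood at 0.14 and 0.10 in the heterozygous and at -0.06 and -0.17 in the knockout arrays, a difference of -0.23. Of the ROR genes, Rorb had the larger difference, -0.31 against -0.16 for Rora. Rorb lay near the filter and passed it only through its heterozygous arrays. REV-ERB minus ROR was 0.07 and 0.40 in the heterozygous and -0.19 and -0.28 in the knockout arrays, so that the groups did not overlap. The difference was -0.47 (pooled SD 0.17 between arrays of a group, n = 2 per group), given as a description with no test. Against Rora alone, the brighter ROR gene, the difference was -0.57 for Nr1d1 and -0.53 for Nr1d2. Against Rorb it was -0.42 and -0.37. Without heterozygous array 2 it was -0.31 and without heterozygous array 1 it was -0.64.

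**Figure D2:**
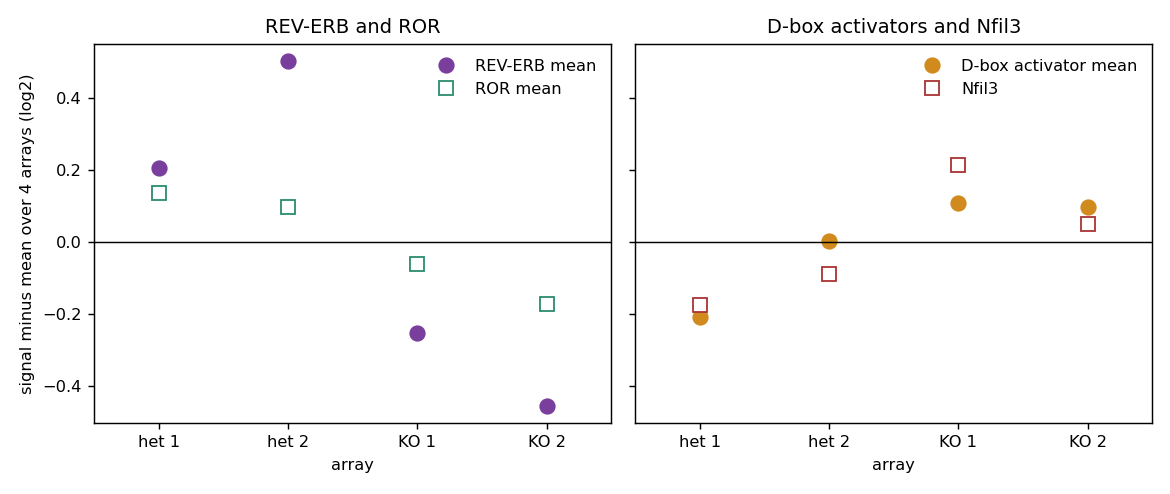
Mean of REV-ERB genes against mean of ROR genes (left), and mean of D-box activators against Nfil3 (right), in each array, as log2 signal minus the mean over the 4 arrays. The REV-ERB mean runs from 0.50 down to -0.45 where the ROR mean runs from 0.14 down to -0.17, whereas the activators and Nfil3 move over nearly the same range.

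Among the D-box activators, Tef had the largest difference. Tef, whose product thyrotroph embryonic factor activates D-box genes, read 8.14 and 8.35 in heterozygous skin and 8.71 and 8.70 in knockout skin. Both knockout arrays were above both heterozygous arrays, by at least 0.35, while the knockout pair differed by 0.01 and the heterozygous pair by 0.21. The difference was 0.46 (SE 0.12, 95% interval 0.20 to 0.72, n = 2 per group), or 1.38-fold, and did not pass (limma adjusted p = 0.081). With the values as deposited it was 0.55 (adjusted p = 0.047) and after median centring 0.58 (adjusted p = 0.022), which passed. Without heterozygous array 1 it was 0.36.

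Dbp, the activator best known as a direct E-box target of BMAL1 and CLOCK, read 7.87 and 7.91 in the heterozygous and 8.08 and 8.17 in the knockout arrays. All knockout values were above all heterozygous ones, and the difference was 0.24 (SE 0.11, 95% interval -0.01 to 0.49, limma adjusted p = 0.301), which did not pass. Sphk2, a sphingosine kinase gene that overlaps Dbp in the annotation, differed by 0.02. Hlf, hepatic leukemia factor, read 8.06 and 8.44 in the heterozygous and 8.22 and 8.11 in the knockout arrays, and both knockout values lay between the heterozygous ones. Its difference of -0.09 (SE 0.14, 95% interval -0.41 to 0.23) did not pass (limma adjusted p = 0.793) and came to 0.11 with heterozygous array 2 left out. After median centring it was 0.017, so the sign of Hlf was not settled. Tef minus Hlf was 0.55 and Tef minus Dbp 0.22, with no test of either.

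Nfil3, the D-box repressor, read 8.57 and 8.66 in the heterozygous and 8.96 and 8.80 in the knockout arrays. The groups did not overlap, with a smallest gap of 0.14. The difference was 0.26 (SE 0.12, 95% interval 0.01 to 0.52, n = 2 per group), and it did not pass (limma adjusted p = 0.271). It was 0.18 without knockout array 1 and 0.41 after median centring.

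The mean of the activators, set against Nfil3 in the same way as above, showed no separation. The activator mean stood at -0.21 and 0.00 (0.0028) in the heterozygous and at 0.11 and 0.10 in the knockout arrays, a difference of 0.20. For Nfil3, centred likewise, the values were -0.18 and -0.09 in the heterozygous and 0.21 and 0.05 in the knockout arrays. Activators minus Nfil3 came to -0.03 and 0.09 in the heterozygous and -0.10 and 0.05 in the knockout arrays, which overlapped. Their difference of -0.06 (pooled SD 0.10, n = 2 per group) was smaller than the spread between arrays of a group. It turned to 0.0025 without heterozygous array 2 and to 0.02 without knockout array 1. Against Nfil3 the single activators stood at -0.02 for Dbp, 0.20 for Tef and -0.35 for Hlf. The groups overlapped for Dbp but not for Tef or Hlf, which lay on opposite sides of 0 and offset each other in the mean.

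**Figure D3:**
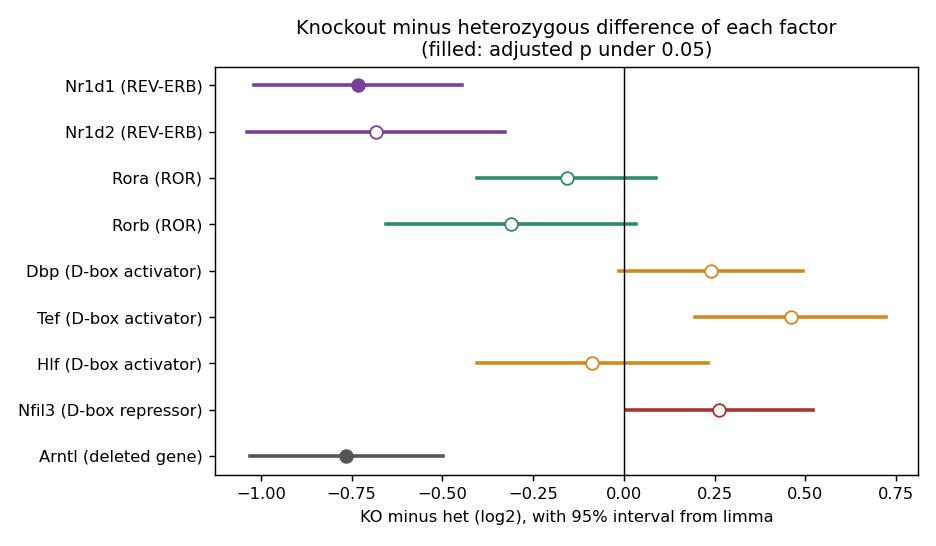
Knockout minus heterozygous difference (log2) of the 8 factors and of Arntl, with limma's 95% intervals, coloured by role and filled where the adjusted p was under 0.05. Nr1d1 and Arntl are filled, at -0.73 and -0.76, and the intervals of Rora, Rorb, Dbp and Hlf include 0.

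Genes around the factors were described by lists of known targets and partners, each gene by its brightest tested probe set. Over all 14919 tested genes the median difference was 0.02, with 54.8% above 0. Of all tested probe sets, 11.6% were higher and 6.38% lower at an unadjusted p under 0.05, which is the background for each count below. Of 10 tested genes known to be controlled through ROR elements, 6 had an unadjusted p under 0.05, against 17.9% of probe sets in either direction. They were 5 higher and 1 lower, and the 5 include Nfil3, itself among the 8 factors. The list median was 0.20, or 0.31 with the values as deposited and 0.35 after median centring. Cry1, the cryptochrome repressor of CLOCK and BMAL1, rose by 0.69 (SE 0.11), Fabp7, a fatty acid-binding protein, by 0.90 (SE 0.13), and Elovl3, a fatty acid elongase, by 0.82 (SE 0.12), with limma adjusted p of 0.015, 0.0125 and 0.0125. Fabp7 read 7.79 and 7.91 in the heterozygous and 8.60 and 8.91 in the knockout arrays. The member that fell was Arntl, the deleted gene. Clock did not pass, at 0.14 (SE 0.11). When probe sets paired with several genes were tested too, the calls of Cry1, Fabp7, Elovl3 and Arntl ended (limma adjusted p of 0.0949, 0.101, 0.0945 and 0.102). Without knockout array 1 those of Cry1 and Elovl3 ended (0.082 and 0.0601). Of 9 list genes with a promoter window, 4 held the ROR element core (Arntl, Nfil3, Fabp7 and G6pc), against 2.97% of all 27025 genes with a window. The list was made of genes known for such elements.

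Elovl3 is also a marker of sebocytes, which make sebum. All 4 sebocyte markers were higher with an unadjusted p under 0.05, with a mean level of 10.6 and 10.2 in the heterozygous and 11.2 and 11.2 in the knockout arrays. The 4 skeletal muscle markers were likewise higher, with 12.3 and 12.4 against 13.0 and 12.8. Of the macrophage, adipocyte and melanocyte markers, 1 of 4 each was lower at that p. None of the 4 keratinocyte, hair follicle stem cell, fibroblast or endothelial markers had such a p, nor had the 3 tested T cell markers or the 1 erythrocyte marker. The part of these shifts in the differences of the factors and of Elovl3 was not tested.

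Genes with D-box elements lay on both sides of 0. Of 12 tested, 3 were higher and 2 lower at an unadjusted p under 0.05 (background 11.6% and 6.38%), with a median of -0.07, which was 0.04 with the values as deposited and 0.07 after median centring. By sign, 6 of the 12 were above 0 and 6 below. Nr1d2, Rora and Rorb, themselves among the 8 factors, were among the 6 below, at -0.68, -0.16 and -0.31. Nr1d2 was 1 of the 2 lower, and Rorb passed the filter only through its heterozygous arrays. The counts and the median therefore include factors already described. Cry1 stands in this list too and was its 1 member with an adjusted p under 0.05. Nr1d2 has been described, and Per1, a period gene with E-box and D-box control, differed by -0.42 (SE 0.11, limma adjusted p = 0.083). Alas1, the first enzyme of heme synthesis, differed by 0.66 (SE 0.17, limma adjusted p = 0.083), or by 0.41 without heterozygous array 2. Of the 10 tested genes that act on the factors through E-boxes, 3 were higher and 2 lower at that unadjusted p. The background was the same 11.6% and 6.38%. Arntl, the deleted gene, was among the 2 lower, and Cry1 was again among the 3 higher. Bhlhe41, a repressor that binds E-boxes, rose by 0.93 (SE 0.20, limma adjusted p = 0.046), or by 0.62 without knockout array 1, where it did not pass. Its call also ended without a filter (limma adjusted p = 0.1), without limma's trend (0.065) and with a robust prior (0.063). With all probe sets tested it was 0.37, and 0.184 when probe sets paired with several genes were tested too. Cry2 differed by 0.47 (SE 0.11, limma adjusted p = 0.067).

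The tested cofactors of the receptors mostly did not pass. Of 6 listed genes of the REV-ERB corepressor complex, 4 were tested: Gps2, Hdac3, Tbl1x and Tbl1xr1. No NCoR gene was among them. Gps2 was lower at an unadjusted p under 0.05, by -0.30 (SE 0.12, limma adjusted p = 0.211). The list median was -0.11, or 0.03 after median centring. The -0.11 rests on the brighter Tbl1xr1 probe set, at -0.23 (SE 0.11), while the other, nearly as bright, differed by -0.02 (SE 0.11). Hdac3, the deacetylase of that complex, read 10.7 and 10.5 in the heterozygous and 10.9 and 10.7 in the knockout arrays. Of 8 ROR coactivators, Ppargc1a, which encodes PGC-1 alpha, rose by 0.54 (SE 0.11, limma adjusted p = 0.042), and its second probe set differed by 0.39. The Ppargc1a call ended when any array but heterozygous array 1 was left out. It also ended without a filter (limma adjusted p = 0.080) and without limma's trend (0.062). With all probe sets tested the adjusted p was 0.318, and 0.134 when probe sets paired with several genes were tested too. Crebbp, a histone acetyltransferase, differed by -0.36 (SE 0.14, limma adjusted p = 0.211), or by -0.18 without knockout array 2. PGC-1 alpha is also abundant in muscle, whose markers were higher in the same arrays. The part of muscle in the Ppargc1a difference was not tested.

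Heme is the ligand of the REV-ERB proteins, and genes of its synthesis and breakdown had a median of 0.25, or 0.41 after median centring. All 9 tested were higher on average in the knockout arrays, where 54.8% of all tested genes were. At an unadjusted p under 0.05 there were 4 of them, against 11.6% of probe sets, and at an adjusted p under 0.05 there were 0. The lowest mean over the list was that of heterozygous array 2, at 8.80, against 9.16 in heterozygous array 1 and 9.26 and 9.32 in the knockout arrays. Without heterozygous array 2 the median was 0.13 and 7 of the 9 were higher. Urod, which makes coproporphyrinogen, differed by 0.52 (SE 0.13, limma adjusted p = 0.081), Cpox, the next enzyme, by 0.39 (SE 0.14), or by 0.19 without that array, and Alad by 0.51 (SE 0.22), or by 0.13 without it. Of the 7 genes known for REV-ERB turnover, such as Fbxw7 and Siah2, none had an unadjusted p under 0.05, and their differences ran from -0.14 to 0.16.

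**Figure D4:**
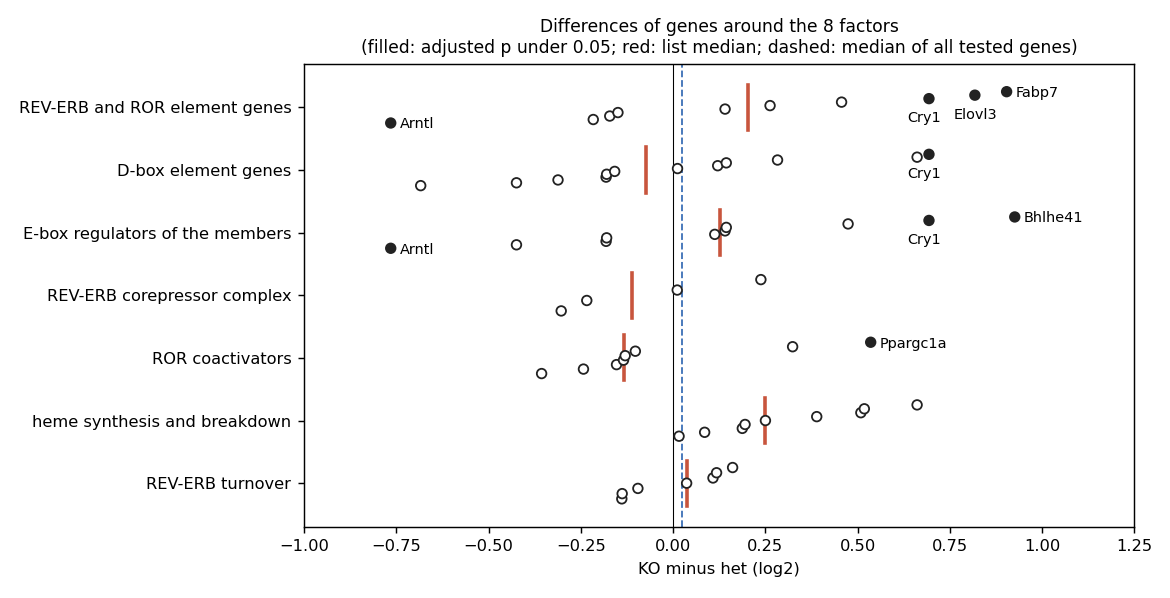
Knockout minus heterozygous difference (log2) of tested genes around the factors, 1 point per gene and 1 row per list, filled where the adjusted p was under 0.05, with list medians in red and the median of all tested genes (0.02) dashed. Genes of ROR elements spread from Arntl at -0.76 to Fabp7 at 0.90, and all 9 heme genes lie above 0.

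Genes with the most similar profile were found by the root mean square distance between centred values over the 4 arrays, which 4 arrays can measure only loosely. For Nr1d1 the nearest of all tested genes was Arntl, the deleted gene, at 0.0506, followed by the olfactory receptor genes Olfr1393 at 0.0514 and Olfr1535 at 0.059. Nr1d2 was nearest to Olfr632 at 0.048, Defb34 at 0.058 and Gm4952 at 0.060. For Tef they were Mettl22 at 0.0053, Tmem159 at 0.015 and Mrpl54 at 0.019, and for Nfil3 they were Usp47 at 0.0093, Uqcc3 at 0.012 and Ddx47 at 0.0125.

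**Figure D5:**
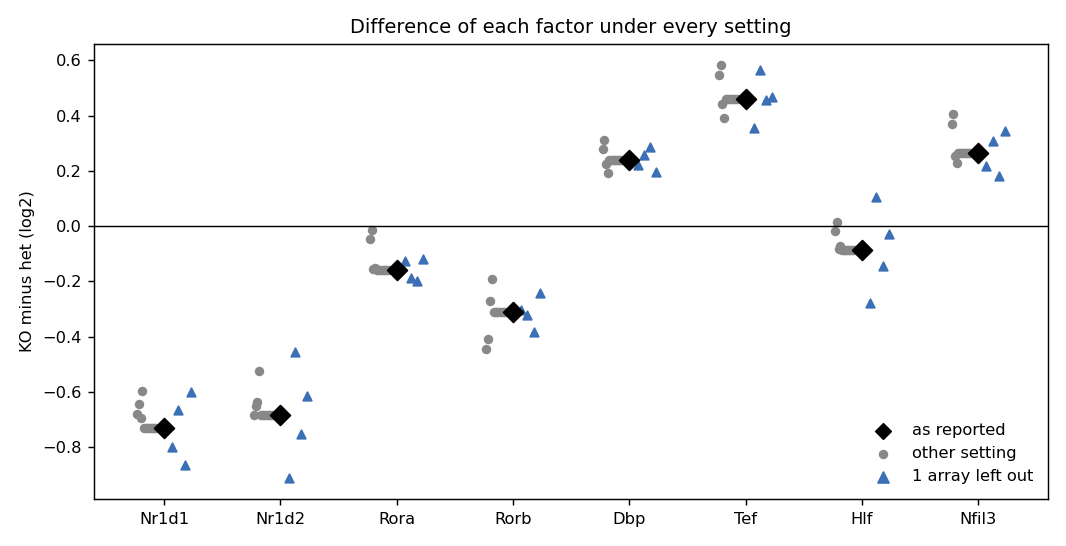
Knockout minus heterozygous difference (log2) of each factor as reported (black), under other settings (grey) and with 1 array left out (blue). Nr1d1 stays between -0.86 and -0.60 and Tef between 0.36 and 0.58, while Hlf crosses 0.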

How the data were processed

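RNA of 4 whole back skin samples was amplified with a whole-transcript kit and hybridised to Affymetrix arrays, per the labels' protocols. The submitters' processing notes name PLIER 2.0 and Affymetrix Expression Console 1.1.1. The deposited values were taken as log2 from their range, 2.54 to 14.9, since no source used here states their scale or the scaling between arrays. Array quartiles differed by up to 0.34, so values were quantile normalized. Of 35557 probe sets, 12147 were unnamed, 1621 had several genes and 21789 had 1. Of the 21789, 21698 were matched through the gene identifier to the GRCm38.p6 gene table, whose symbols were then used. Tested were probe sets with 1 gene and a mean above the 25th percentile (6.67), with limma 3.58.1 in R 4.3.3 (eBayes with trend, 2 residual degrees of freedom, Benjamini-Hochberg over all tested). SEs are moderated. The test was checked on simulated data. Array number limits precision.

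Members and lists were chosen with earlier results of these data known. Named are the 8 factors, Arntl, at most 4 genes per list with an unadjusted p under 0.05, and the 3 nearest profiles of Nr1d1, Nr1d2, Tef and Nfil3. Thra, Sphk2, Clock, Hdac3, Fbxw7, Siah2 and the list genes with a ROR element core were named for overlap, role or motif after values were seen. Ciart, Tbl1x and Tbl1xr1 were likewise named after values were seen, for a second probe set or as tested list members. Motifs were searched with Python 3.11.15. Alternatives were other scalings, offsets of 16 and 64, filters, variance priors, sets of probe sets, a replicate block and each array left out.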

Additional observations from a re-analysis of the deposited data

How the results depend on the processing

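The count of probe sets at an adjusted p under 0.05 depended on the setting. It was 323 as reported (241 higher), 544 with the values as deposited (459 higher), 913 after median centring (780 higher), 145 without a filter, and 0 both with all probe sets and when probe sets paired with several genes were tested too. Those last settings gave 3983 and 2713 at an unadjusted p under 0.05, and the prior degrees of freedom were 2.75 and 4.12 against 7.73 as reported. The several-gene setting was chosen after seeing the data. With 1 array left out the count ran from 77 (without knockout array 1) to 986 (without heterozygous array 1), and that at an unadjusted p under 0.05 ran from 1685 to 3720, with 2933 as reported. Among the 8 factors 3 to 4 had an unadjusted p under 0.05 with 1 array left out, 6 with the deposited values or median centring, and 3 with all probe sets. The median difference over all tested probe sets was 0.02 as reported, 0.07 with the deposited values and 0.10 after median centring.

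Nr1d1 passed in 11 of 16 other settings, Nr1d2 in 4 of 15, Tef in 3 of 16 and the other factors in 0. Hlf ran from -0.28 to 0.11 with 1 array left out, turning positive without heterozygous array 2, and was 0.017 after median centring. No other factor changed sign. REV-ERB minus ROR ran from -0.64 to -0.31 with 1 array left out and from -0.47 to -0.39 in other settings. With the filter at the 50th percentile Nr1d2 and Rorb were not tested, so that filter gives no value for the comparison of both genes a side. Activators minus Nfil3 ran from -0.13 to 0.02 with 1 array left out, turning positive without heterozygous array 2 (0.0025) and without knockout array 1 (0.017). The cause of these changes was not tested.

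The replicate number in the labels is not said to mark a litter, and the gap between arrays 1 and 2 correlated at 0.17 across probe sets between the groups. With it as a replicate block, 1235 probe sets passed, as did Nr1d1 (adjusted p = 0.0037), Nr1d2 (0.0091) and Tef (0.031). Choosing 1 probe set per gene or including dim members left both comparisons as they were, since each factor had 1 tested probe set. Dim signals limit Rorb most.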
